A study of Mus musculus with 9 samples.

Results

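Old haematopoietic stem cells (HSCs) sampled with the sphingosine kinase 2 inhibitor ABC294640 were compared with young HSCs across all genes, to ask which differences from young HSCs were still present with the inhibitor. The comparison rests on 6 of the 9 libraries of the study, chosen by their labels: 3 of treated old HSCs and 3 of young HSCs, from bone marrow of wild-type mice. The other 3 libraries, of old HSCs without the inhibitor, gave the differences that could remain. Each library was made from polyadenylated RNA of 1500 sorted cells, flushed from femora and tibiae and freed of red cells by lysis. By the wording of the protocols, the young group was taken to be 2 to 4 months old and both old groups 20 to 24 months. The sources used here give neither the sort markers nor how long, by which route and at what dose the inhibitor was applied. Whether a group's 3 libraries stem from 3 mice is not labelled either, and the p-values cover only the variation among these libraries, part of which may be technical.

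HSCs sit at the top of blood formation and give rise to red cells, platelets, granulocytes, monocytes and lymphocytes. In aged mice they are known to become more numerous, to repopulate less well per cell, and to favour myeloid and platelet output over lymphoid output. Sphingosine kinases phosphorylate sphingosine, a breakdown product of ceramide, to sphingosine 1-phosphate, a lipid that acts both through cell surface receptors and inside the cell. The title of the study ties sphingosine metabolism to ferroptosis, a form of cell death driven by iron-dependent peroxidation of membrane lipids, and to rejuvenation of aged HSCs.

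Library totals ran from 16663460 to 23254133 counts, and levels are given as CPM, counts scaled to library size with edgeR's TMM factors. Of the HSC markers, Kit was measured at 119 ± 4.56 CPM in young and 117 ± 1.68 CPM in treated old libraries (mean ± SD, n = 3), and Ly6a at 86.7 ± 1.53 and 48.6 ± 2.72 CPM, while the log2 fold change of Hlf from young was 0.30 ± 0.080 (SE). Fgd5, Procr and Hoxb5 were below 5 CPM in every library, while Cd48, a marker of more committed progenitors, stood at 296 ± 7.60 CPM in young and 253 ± 3.17 CPM in treated old libraries. Summed levels of 4 neutrophil markers ran from 1118 to 1168 CPM in young and from 1526 to 1563 CPM in treated old libraries, almost all from Ngp and Camp, with Ly6g below 2 CPM. The fourth, Ltf, stood at 36.8 ± 1.42 CPM in young and 32.9 ± 2.69 CPM in treated old libraries. Markers of B cells, T cells and stroma summed to at most 2.79, 6.72 and 2.01 CPM in any young or treated old library. The 11 HSC markers summed to 396.6 to 410.1 CPM in young and 341.4 to 349.2 CPM in treated old libraries. In the same order, mast cell and basophil markers ran 136.5 to 146.3 and 147.8 to 155.7 CPM. Plasma cell markers ran 31.02 to 31.89 and 54.39 to 57.79 CPM. Monocyte and macrophage markers ran 20.07 to 23.05 and 12.07 to 15.15 CPM, megakaryocyte markers 27.48 to 28.49 and 16.90 to 21.44 CPM. Erythroid markers ran 17.22 to 18.04 and 7.254 to 9.917 CPM. The detected genes numbered 20221 ± 63.5 in young and 18687 ± 288 in treated old libraries, and 19891 ± 36.8 and 18537 ± 134 after thinning to equal depth (two-sided exact permutation p = 0.1 for each, the smallest that 3 against 3 libraries can give). Summed levels of 4 single-copy Y-linked genes ran from 8.25 to 10.3 CPM in young and from 122.8 to 146 CPM in treated old libraries, so the apparent sex of the mice and their age cannot be told apart. Genes of the X and Y chromosomes were left out of all counts below. In such sorted populations, fewer cells of a type and less RNA per cell cannot be told apart.

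With the inhibitor, 5132 of 13686 genes differed from young HSCs (37.5%), 2651 higher (19.4%) and 2481 lower (18.1%), by edgeR's quasi-likelihood test at a Benjamini-Hochberg adjusted p under 0.05. Without the inhibitor, 5368 genes differed from young HSCs (39.2%), 2712 higher (19.8%) and 2656 lower (19.4%). Of those 5368 genes, 4124 (76.8%) also differed from young HSCs with the inhibitor in the same direction, 2233 higher and 1891 lower. These 4124 genes were 80.4% of all genes called with the inhibitor and 30.1% of all genes tested. Both comparisons share the 3 young libraries, so part of what they share can come from those libraries.

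Between treated and untreated old HSCs, 164 genes were called (1.2%), 103 higher (0.753%) and 61 lower (0.446%). Of the 4124 differences that remained, 37 were smaller with the inhibitor by this direct test and 16 were larger, and 4071 were not called apart. The median absolute log2 fold change of the 4124 genes was 0.44 with the inhibitor and 0.46 without it. Of 1082 genes that differed more than 2-fold between untreated old and young HSCs, 877 were still called in the same direction with the inhibitor. A further 1234 genes were called without the inhibitor only, 475 higher and 759 lower in old HSCs. Their median absolute log2 fold change was 0.33 without and 0.17 with the inhibitor, and 73 of them were called between treated and untreated old HSCs in the direction of young HSCs. Another 998 genes were called with the inhibitor only, 412 higher and 586 lower, and 23 of these were called apart from untreated old HSCs. The median absolute log2 fold change of the 998 genes was 0.39 with and 0.21 without the inhibitor. Genes chosen for a call in 1 comparison only tend to differ more there, so neither pair of medians measures the inhibitor's effect. The remaining 10 called genes had opposite signs in the comparisons with young HSCs. The counts between the old groups rest on few libraries: 31 genes were higher and 38 lower without treated replicate 1, 17 and 31 without treated replicate 2, 49 and 39 without untreated replicate 1, 39 and 37 without untreated replicate 2, and 168 and 110 without young replicate 1. The 998 genes were 650 without treated replicate 2, 1581 without untreated replicate 1 and 1570 without untreated replicate 3.

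Most of the large differences were falls in genes of low level. Past 2-fold, 198 genes were higher and 966 lower in treated old than in young HSCs, but among genes with at least 10 CPM in the higher group these counts were 68 and 87. At that level, 2375 of 7852 genes were called higher and 956 lower. With a stricter filter on low counts, which tests fewer genes and also re-centres the libraries, the corresponding calls were 1704 higher and 1309 lower. With RLE size factors they were 2508 and 912.

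The 10 largest rises among well-measured genes were Degs2, Il1r2, Lrg1, Gpx3, Cd177, Clu, Reck, Dgat2, Smim6 and Chst13. Degs2 (chromosome 12, chr12:108678711-108702315, GRCm38, minus strand), a desaturase and hydroxylase of dihydroceramide in sphingolipid synthesis, was measured at 2.16, 1.72 and 3.08 CPM in the young and 17.2, 19.7 and 15.3 CPM in the treated old libraries. All treated values lay above all young ones, with a log2 fold change of 2.90 ± 0.15 (SE), and untreated old libraries held 17.9, 16.1 and 17.3 CPM. Of its exon bases, 10.8% overlap Evl, and counting with strand is not stated.

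Il1r2, the decoy receptor of interleukin-1, stood at 6.34, 5.98 and 5.75 CPM in young and 37.4, 35.4 and 36.5 CPM in treated old libraries, a log2 fold change of 2.59 ± 0.080. The untreated old libraries, at 43.9, 41.0 and 43.3 CPM, lay above the treated ones, but the direct comparison did not pass the test (adjusted p = 0.116). Clu, a secreted chaperone known to be high in old HSCs, was measured at 21.0 ± 3.22 CPM in young libraries (mean ± SD, n = 3) and at 71.7, 69.0 and 74.2 CPM in treated old libraries, against 79.2, 69.2 and 74.8 CPM in untreated old ones. Gpx3, a secreted glutathione peroxidase, rose from 11.2, 9.32 and 10.4 CPM in young to 38.5, 41.5 and 37.7 CPM in treated old libraries. Neutrophil-associated Lrg1 and Cd177 were 3.90-fold and 3.55-fold higher than in young HSCs, and Dgat2, an enzyme of triglyceride synthesis, was 3.26-fold higher. In each of these genes the treated and young libraries did not overlap, which held for 23.9% of all genes in the higher direction and was a condition of the choice of these genes.

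The 10 largest falls were Ifi27l2a, H2-Eb1, Skint4, Ms4a4c, Tmprss11b, Mmp12, Iigp1, Myl10, H2-Aa and Styk1. Ifi27l2a, an interferon-inducible gene, was measured at 42.5, 36.1 and 35.2 CPM in young and 12.3, 12.8 and 11.1 CPM in treated old libraries, with a log2 fold change of -1.66 ± 0.10 (SE). Untreated old libraries held 11.8, 8.66 and 10.9 CPM. H2-Eb1 and H2-Aa, which encode chains of MHC class II molecules, had log2 fold changes of -1.60 and -1.40. H2-Eb1 fell from 53.2, 51.8 and 50.4 CPM in young to 18.8, 17.9 and 14.8 CPM in treated old libraries, and the untreated old libraries, at 13.4, 12.1 and 14.9 CPM, overlapped the treated ones. Iigp1, an interferon-inducible GTPase directed at intracellular pathogens, was 2.70-fold lower, and Mmp12, the elastase of macrophages, was 2.70-fold lower. All 20 genes of largest change were also called in the same direction in untreated old HSCs, and edgeR's quasi-likelihood test called none between treated and untreated old HSCs, where 3 had an unadjusted p under 0.05 and DESeq2 called 1.

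**Figure D1:**
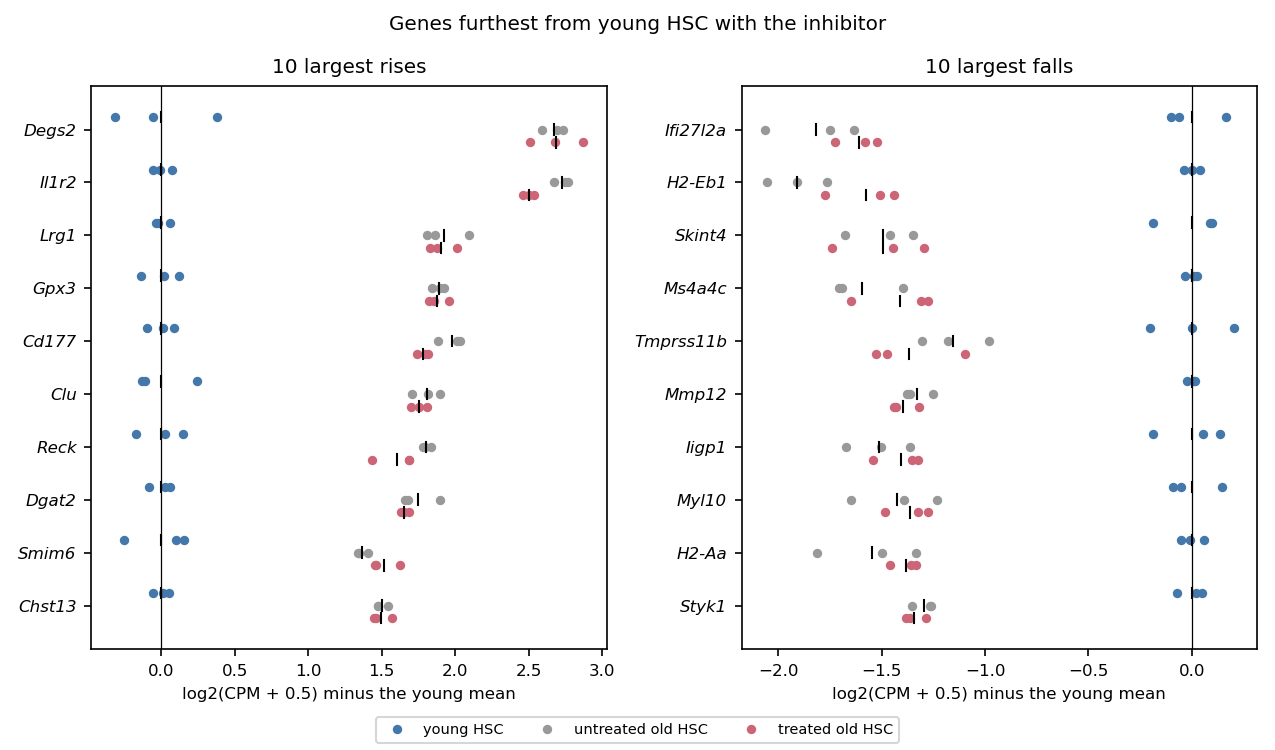
Levels of the 10 largest rises (left) and 10 largest falls (right) of treated old against young HSCs. Each point is 1 library, placed on the horizontal axis by its log2(CPM + 0.5) minus the mean of the 3 young libraries, and black ticks are group means. Treated and untreated old libraries lie on the same side of the young ones in all 20 genes.

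Gene lists were described by how many of their tested members were called in each direction, beside 19.4% of all genes higher and 18.1% lower, and by their median log2 fold change, beside -0.017 over all genes. Among genes with at least 10 CPM in the higher group, 2375 of 7852 were called higher and 956 lower. A list of well-measured genes is therefore better set beside those counts than beside the shares of all genes. The interferon-stimulated genes, which encode antiviral effectors and immune GTPases induced by the transcription factors of interferon signalling, were lower as a group. Of 72 tested, 60 were lower and 0 higher in treated old than in young HSCs by edgeR's test, with a median of -0.67. None was higher at an unadjusted p under 0.05 or by DESeq2 either. The count of higher genes was 2 without young replicate 1 and 1 without untreated replicate 2. It reached 2 across other scalings, filters and gene sets. In untreated old HSCs 60 were lower and none higher, with a median of -0.72, and 59 of the 60 remained with the inhibitor.

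The promoters of this list are shown for 3 of its GTPases, because the response element of interferon signalling can be read in them. The 250 bases before each gene's start (RefSeq, GRCm38.p6) were searched for the interferon-stimulated response element on either strand. It matched 22 of the 53 tested members with a promoter in the RefSeq table (41.5%) and 894 of 25748 genes (3.47%). In the lines below the matches are in capitals, and each sequence runs 5′ to 3′ on the strand of its gene. A match describes the letters and shows no binding.
Irgm1 (chr11:48871421-48871670, minus strand): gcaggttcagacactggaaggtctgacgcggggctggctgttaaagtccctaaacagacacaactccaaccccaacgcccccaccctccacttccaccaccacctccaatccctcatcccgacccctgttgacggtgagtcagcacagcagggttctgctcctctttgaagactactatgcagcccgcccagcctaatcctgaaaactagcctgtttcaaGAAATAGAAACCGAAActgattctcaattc
Igtp (chr11:58199306-58199555, plus strand): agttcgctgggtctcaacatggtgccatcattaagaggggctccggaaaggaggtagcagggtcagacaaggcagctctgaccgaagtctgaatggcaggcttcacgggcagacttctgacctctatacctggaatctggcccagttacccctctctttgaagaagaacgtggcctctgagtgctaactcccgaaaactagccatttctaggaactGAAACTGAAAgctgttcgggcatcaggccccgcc
Gbp7 (chr3:142530086-142530335, plus strand): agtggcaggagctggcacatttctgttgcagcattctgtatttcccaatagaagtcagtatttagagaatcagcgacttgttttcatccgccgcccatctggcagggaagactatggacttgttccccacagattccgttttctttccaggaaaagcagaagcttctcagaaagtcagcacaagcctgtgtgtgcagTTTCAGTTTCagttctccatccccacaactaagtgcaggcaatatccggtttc

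Irgm1, an immunity-related GTPase, was measured at 155, 164 and 166 CPM in young and 91.4, 90.4 and 93.4 CPM in treated old libraries, with 92.1, 87.4 and 91.2 CPM in untreated old ones. Its log2 fold change of treated old against young was -0.82 ± 0.047 (SE), and treated and untreated values overlapped. Igtp, another GTPase of that family, fell from 103, 92.3 and 95.7 CPM to 49.6, 47.3 and 44.4 CPM, a log2 fold change of -1.04 ± 0.062. Gbp7, a guanylate-binding protein, had means of 117 ± 9.20 CPM in young and 67.2 ± 2.29 CPM in treated old libraries, a log2 fold change of -0.80 ± 0.058. Rtp4, an interferon-induced chaperone of receptor trafficking, was 2.43-fold lower with the inhibitor, and Ifi27 was 1.81-fold lower. One gene of the list was called between treated and untreated old HSCs: Irgm2, at 15.4, 17.8 and 17.5 CPM in young, 10.2 ± 0.517 CPM in untreated (mean ± SD, n = 3) and 7.02, 6.59 and 8.27 CPM in treated old libraries, moved further from young (log2 fold change -0.48 ± 0.12, adjusted p = 0.0452). That call was lost in 7 of the 9 fits that left out 1 library, all but those without young replicate 1 or treated replicate 3, with adjusted p up to 0.276.

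Antigen presentation genes were lower beside them. Of 24 genes of MHC class I presentation, 17 were lower and 4 higher, and of 14 of MHC class II presentation 9 were lower and none higher, also by DESeq2 or at an unadjusted p under 0.05. B2m, the light chain of MHC class I molecules, was measured at 5362, 5702 and 6106 CPM in young, 3102, 3134 and 3369 CPM in untreated and 3672, 3655 and 3595 CPM in treated old libraries. It was lower than in young HSCs with the inhibitor (log2 fold change -0.65 ± 0.044) and, in the direct comparison, higher than in untreated old HSCs (0.19 ± 0.044, adjusted p = 0.0406). That direct call was lost in 6 of the 9 fits that left out 1 library (adjusted p up to 0.251), with RLE size factors (0.0552) and with the stricter filter (0.0609). Cd74, the invariant chain of class II molecules, was 2.16-fold lower and H2-Ab1 2.02-fold lower than in young HSCs. H2-Q6, H2-Q7 and H2-T22 were also lower, but 51.8%, 39.2% and 67.4% of their 31-base words occur in other genes' transcripts, so their counts are uncertain.

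Lineage genes differed by lineage. Of 35 erythroid genes, 29 were lower and 3 higher in treated old than in young HSCs, with a median log2 fold change of -0.72, and 31 of 32 old against young calls remained. Klf1, the master transcription factor of red cell genes, was measured at 76.1, 66.5 and 64.4 CPM in young and 30.9, 34.9 and 30.6 CPM in treated old libraries, with 32.2, 31.6 and 29.0 CPM in untreated old ones. Car1, a carbonic anhydrase of red cells, fell from 694, 747 and 740.0 CPM to 359, 354 and 358 CPM, and untreated old libraries were lower still at 311, 314 and 315 CPM. The difference of treated from untreated old HSCs was 0.19 ± 0.042 (adjusted p = 0.0254), a call lost in 7 of the 9 fits that left out 1 library (adjusted p up to 0.178), and 20.1% of its words occur in other transcripts. Slc14a1, a urea transporter of red cells, had a log2 fold change of -0.61 with and -0.82 without the inhibitor. Its call between the old groups (adjusted p = 0.0482) was lost in 8 of the 9 fits that left out 1 library. It was kept in 6 of the 11 other fits.

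Of 32 megakaryocyte and platelet genes, 15 were lower and 3 higher than in young HSCs. Pf4, a chemokine of platelet granules, stood at 394, 363 and 368 CPM in young, 186, 163 and 186 CPM in untreated old and 232, 235 and 224 CPM in treated old libraries. The 3 groups did not overlap. Treated libraries all above the untreated ones were found in 8.35% of all genes. The log2 fold change from young was -0.70 ± 0.052 with and -1.08 ± 0.053 without the inhibitor. The direct difference of 0.37 ± 0.053 (adjusted p = 0.000632) held in every fit that left out 1 library. Vwf, which marks platelet-biased HSCs, was lower than in young HSCs at 15.5, 15.2 and 14.6 CPM against 21.4, 22.8 and 20.2 CPM. Selp, the platelet and endothelial adhesion receptor known to rise in old HSCs, was not called (log2 fold change -0.10 ± 0.086).

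Among monocyte and macrophage genes, 26 of 31 were lower and 3 higher, with a median of -0.56. Irf8, the transcription factor that directs monocyte and dendritic cell fates, fell from 124, 116 and 121 CPM in young to 48.3, 46.3 and 48.2 CPM in treated old libraries, a log2 fold change of -1.34 ± 0.057. Ly86, a partner of Toll-like receptor signalling, was 2.52-fold lower. Slc40a1, the iron exporter ferroportin, was 1 of the 3 higher genes of this list, at 25.3, 28.1 and 24.7 CPM in young and 60.4, 57.7 and 61.5 CPM in treated old libraries.

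Primary granule and granulocyte genes were higher: 25 of 34 rose and 1 fell, with a median of 0.54 with and 0.56 without the inhibitor. S100a8, a subunit of the calprotectin of neutrophils, was measured at 2202, 2166 and 2265 CPM in young and 4771, 4666 and 4694 CPM in treated old libraries. Anxa1, a phospholipid-binding protein abundant in myeloid cells, rose 2.40-fold over young HSCs, and the untreated old libraries, at 2091, 2181 and 2099.9 CPM, lay above the treated ones at 1942, 1903 and 1969.8 CPM without a call between them (adjusted p = 0.106). Lcn2, the siderophore-binding lipocalin of granules, rose 2.14-fold. Of the neutrophil markers given above, Ngp and Camp were higher (log2 fold changes of 0.51 and 0.37), while Ltf (-0.17) and Ly6g (0.058) were not called. The part of neutrophils in this list was not tested.

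Lymphoid priming genes were mostly lower, 11 of 21 against 5 higher, and the count of lower genes was 5 without young replicate 3, 6 without treated replicate 1 or 2 and 7 without treated replicate 3. The count of higher genes was 3 without young replicate 3 or treated replicate 1 or 3. Ighm, the heavy chain transcribed in lymphoid-primed progenitors, was 1.61-fold lower, whereas Flt3, a receptor of multipotent progenitors, was higher at 39.3, 42.5 and 34.7 CPM against 30.0, 30.7 and 28.4 CPM. Of 21 B cell and plasma cell genes, 6 were higher and 5 lower, with a median of -0.22, and the lower ones were 3 without young replicate 1 or 2 or any 1 treated library. That median ran from -0.49 to 0.73 across other scalings, filters and gene sets, so its sign is not settled. Plasma cell markers did not move together: Jchain, the joining chain of secreted antibodies, was at 30.4, 30.1 and 29.8 CPM in young, 63.4, 71.3 and 67.8 CPM in untreated old and 56.4, 53.4 and 57.1 CPM in treated old libraries, and Igkc was 2.85-fold higher with the inhibitor than in young HSCs. Sdc1, the surface marker of plasma cells, was lower at 0.87, 0.986 and 0.668 CPM in treated old against 1.53, 1.62 and 1.20 CPM in young libraries (log2 fold change -0.79 ± 0.30, adjusted p = 0.0464). Antigen receptor genes made up 0.0522 ± 0.00287% of counts in young and 0.126 ± 0.00433% in treated old libraries.

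**Figure D2:**
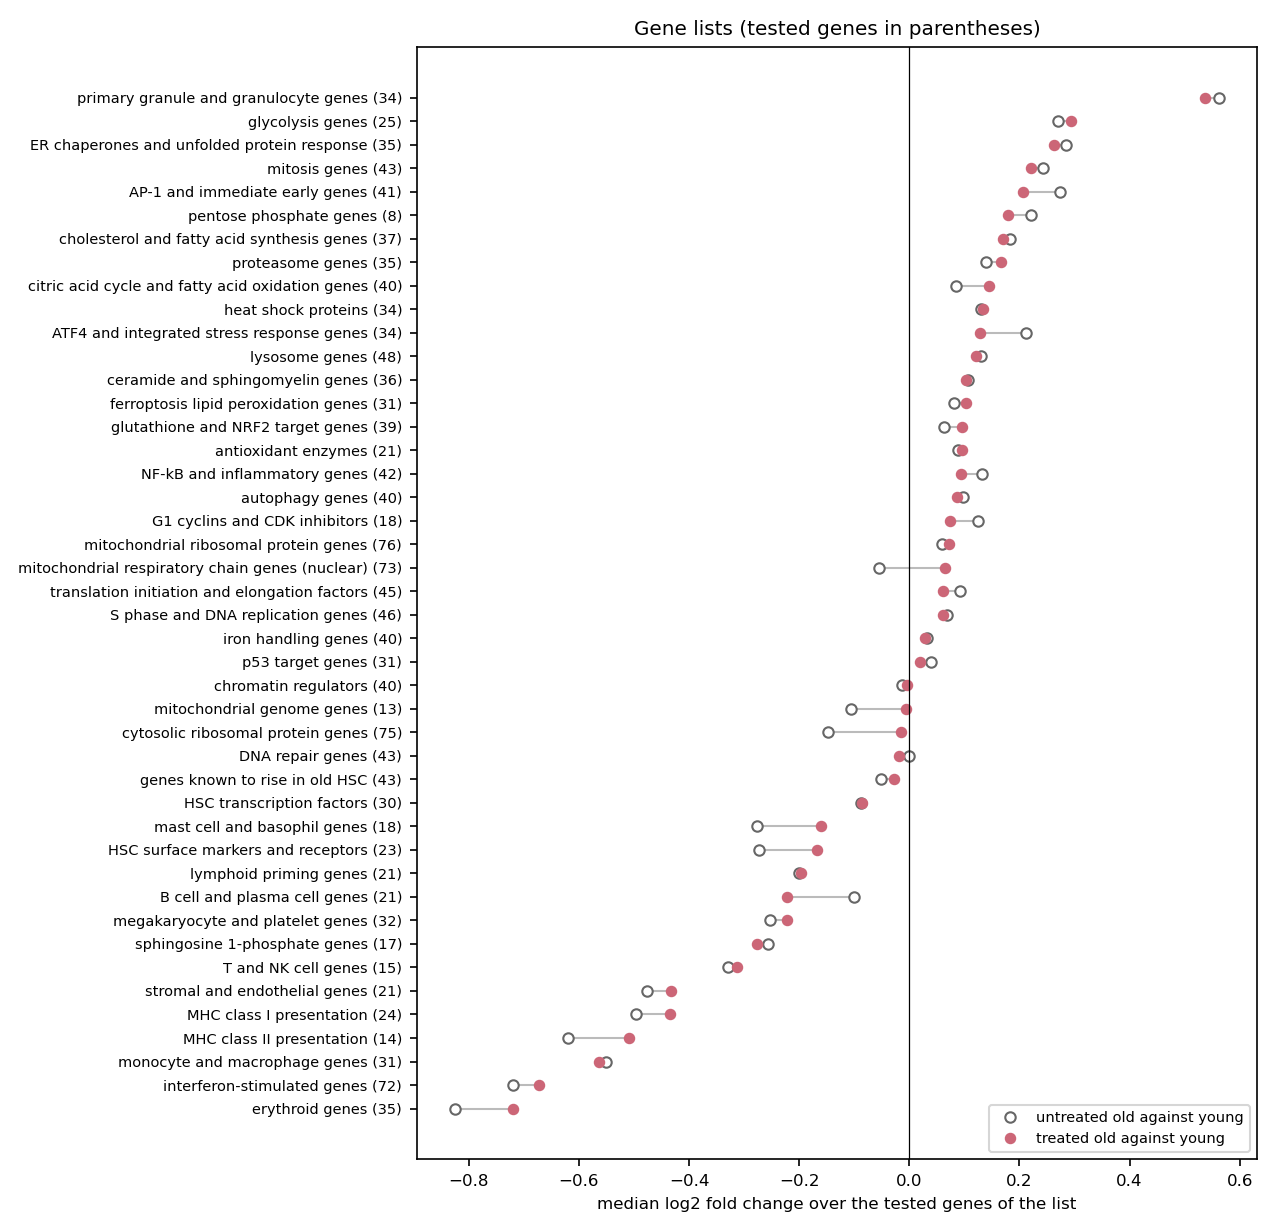
Median log2 fold change over the tested genes of each of 44 gene lists, for untreated old against young HSCs (open circles) and treated old against young HSCs (filled circles), which share the young libraries. Erythroid and interferon-stimulated genes lie furthest below 0 and granule genes furthest above it in both, while cytosolic ribosomal protein genes sit near 0 with the inhibitor and below it without.

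Genes of protein folding in the endoplasmic reticulum (ER) were higher. Of 35 ER chaperones and genes of the unfolded protein response, the programme that matches folding capacity to load, 25 were higher and 1 lower in treated old than in young HSCs, with a median of 0.26. In untreated old HSCs the counts were 25 and 1, with a median of 0.28. The ER stress response element, searched on either strand, matched 10 of the 29 members with a promoter (34.5%) and 32 of 25748 genes (0.124%). The promoters of 2 members are shown with the element in capitals, again as 250 bases before the RefSeq start, 5′ to 3′ on the gene's strand.
Hspa5 (chr2:34771840-34772089, plus strand): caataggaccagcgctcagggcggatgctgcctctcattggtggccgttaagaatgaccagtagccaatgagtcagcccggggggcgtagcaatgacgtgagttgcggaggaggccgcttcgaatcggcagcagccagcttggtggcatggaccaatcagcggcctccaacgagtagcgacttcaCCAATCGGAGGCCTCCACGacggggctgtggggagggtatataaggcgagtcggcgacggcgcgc
Dnajc3 (chr14:118937682-118937931, plus strand): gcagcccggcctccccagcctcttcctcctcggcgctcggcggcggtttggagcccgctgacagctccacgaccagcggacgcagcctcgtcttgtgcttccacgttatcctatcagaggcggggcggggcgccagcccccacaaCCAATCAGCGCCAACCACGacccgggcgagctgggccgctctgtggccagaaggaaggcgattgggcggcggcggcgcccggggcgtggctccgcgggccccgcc

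Hspa5, the main chaperone of the ER, was measured at 854, 935 and 918 CPM in young, 1488, 1566 and 1468 CPM in untreated old and 1434, 1405 and 1504 CPM in treated old libraries. Its log2 fold change of treated old against young was 0.68 ± 0.044 (SE), and treated and untreated values overlapped. Dnajc3, a co-chaperone of Hspa5, rose from 163, 172 and 171 CPM to 269, 257 and 267 CPM. Xbp1, the transcription factor of this response, and Ero1a, an oxidase that drives disulfide bonding, were 1.73-fold and 1.86-fold higher than in young HSCs. Proteasome genes were higher in 20 of 35 and lower in 1, with the higher ones between 11 and 29 across other scalings, filters and gene sets. Of 34 heat shock proteins, 16 were higher and 6 lower. Hspa1a, the inducible cytosolic member, fell from 156 ± 6.20 CPM to 74.8 ± 2.56 CPM, with 70.1% of its words shared with other transcripts.

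The genes of the integrated stress response, which follow the transcription factor ATF4, split 14 higher and 3 lower of 34, against 18 and 1 without the inhibitor. Psat1, an enzyme of serine synthesis, stood at 76.3, 79.9 and 75.4 CPM in young and 101, 99.1 and 102 CPM in treated old libraries. Its untreated old libraries were higher, at 114, 108 and 112 CPM, without a call between the old groups (adjusted p = 0.252). Of 41 AP-1 and immediate early genes, 24 were higher and 3 lower, and Egr1, a transcription factor of quiescent HSCs, rose from 291, 290.4 and 282 CPM to 449, 457 and 438 CPM.

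Mitosis genes were higher in 30 of 43 cases and lower in 1, with a median of 0.22 with and 0.24 without the inhibitor. Aurka, a kinase of spindle assembly, was measured at 92.7, 89.1 and 85.2 CPM in young and 127, 122 and 128 CPM in treated old libraries, and Ccnb2, a mitotic cyclin, at 226, 229 and 221 and 295, 291 and 294 CPM. Genes of S phase moved less: 11 of 46 were higher and 3 lower, and the count of higher genes ran from 6 to 16 across other scalings, filters and gene sets. Rrm2, a subunit of ribonucleotide reductase, rose 1.59-fold. Cdkn1a, the p53-induced cell cycle inhibitor, stood at 51.8, 47.9 and 50.2 CPM and 57.4, 61.1 and 53.3 CPM (log2 fold change 0.19 ± 0.068, adjusted p = 0.0309). That call was lost without young replicate 2 (adjusted p = 0.0888) or 3 (0.0556), or without treated replicate 1 (0.0623) or 2 (0.112), and with the stricter filter (0.129) or with trends in GC content and length removed (0.0591).

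Glycolysis genes were higher in 16 of 25 cases and lower in none by edgeR's test, with 2 lower at an unadjusted p under 0.05 and none by DESeq2, and a median of 0.29. Gapdh rose 2.21-fold and Ldha, which makes lactate, from 1489.6 ± 38.7 CPM to 1949.7 ± 27.8 CPM. Words shared with other transcripts make up 28.1% of Gapdh. Of 40 genes of the citric acid cycle and fatty acid oxidation, 20 were higher and 2 lower, led by Acaa2, a thiolase of fatty acid oxidation, at 114, 108 and 105 and 157, 158 and 157 CPM. Lysosome genes split 22 higher and 7 lower of 48. Atp6v1a, a subunit of the proton pump, rose 1.64-fold, and the protease gene Ctss fell 2.05-fold.

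The genes of sphingolipid metabolism bear on the inhibitor's target. Sphk2, which encodes the target, was measured at 7.55, 5.93 and 8.06 CPM in young, 9.30, 7.08 and 6.86 CPM in untreated old and 6.67, 6.22 and 6.16 CPM in treated old libraries. Treated and young values overlapped and the difference was not called (log2 fold change -0.18 ± 0.15, adjusted p = 0.349), and 21.9% of its exon bases overlap Dbp and Rpl18. An inhibitor of the enzyme need not change its transcript, so this gene does not check the label. Sphk1, the other sphingosine kinase, fell from 16.0, 14.5 and 14.5 CPM in young to 7.25, 8.93 and 7.24 CPM in treated old libraries, a log2 fold change of -0.95 ± 0.12 with and -0.83 ± 0.11 without the inhibitor.

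Of 17 genes of sphingosine 1-phosphate enzymes, transporters and receptors, 1 was higher and 4 were lower in treated old than in young HSCs. The one higher gene was Sgpp1, a phosphatase of sphingosine 1-phosphate, at 21.1, 26.3 and 29.6 CPM and 31.1, 32.6 and 36.4 CPM. Mfsd2b, its exporter in red cells and platelets, had a log2 fold change of -0.27 ± 0.073. Of 36 ceramide and sphingomyelin genes, 15 were higher and 4 lower. Sgms2, a sphingomyelin synthase, rose from 52.7, 58.7 and 59.8 CPM to 114, 119.7 and 118 CPM, and the untreated old libraries lay above, at 120.0, 129 and 127 CPM, without a call (adjusted p = 0.656). Cers2, a ceramide synthase of very long chains, rose 1.38-fold, and Psap, the precursor of lysosomal sphingolipid activators, fell 1.49-fold. Between treated and untreated old HSCs edgeR's test called no gene of either list, DESeq2 called none, and 2 ceramide and sphingomyelin genes had an unadjusted p under 0.05.

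The genes of ferroptosis and its defences did not move in 1 direction. Slc7a11, the cystine importer that feeds glutathione synthesis, was measured at 23.5, 27.6 and 23.8 CPM in young, 15.1, 16.3 and 13.5 CPM in untreated old and 12.8, 11.6 and 14.6 CPM in treated old libraries. Its log2 fold change from young was -0.93 ± 0.099 with and -0.73 ± 0.097 without the inhibitor. Gpx4, the peroxidase that reduces lipid hydroperoxides, was not called (log2 fold change 0.089 ± 0.053, adjusted p = 0.194), with 38.9% of its words shared. Tfrc, the transferrin receptor through which cells take up iron, rose from 34.3, 39.3 and 38.6 CPM to 59.2, 55.3 and 63.3 CPM. Fth1, the heavy chain of ferritin, had a log2 fold change of 0.13 ± 0.037 (adjusted p = 0.0111), a call lost without treated replicate 3 (0.0511) and with the stricter filter (0.147). Of 31 genes of lipid peroxidation, 9 were higher and 1 lower, among them the higher Agps, an enzyme of ether lipid synthesis (0.44 ± 0.053).

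Of 40 iron handling genes, 13 were higher and 9 lower, the latter 5 without treated replicate 1. Alas1, which starts haem synthesis, rose 1.80-fold, and Hebp1, a haem-binding protein, fell 2.10-fold. Of 39 glutathione and NRF2 target genes, 13 were higher and 7 lower, the latter 4 without young replicate 3. Gclm, the modifier subunit of the first enzyme of glutathione synthesis, stood at 120.4, 121 and 122 CPM in young, 191, 194 and 189.8 CPM in untreated old and 168, 157 and 167 CPM in treated old libraries. The 3 groups did not overlap, and the treated libraries were lower than the untreated ones (log2 fold change -0.22 ± 0.044, adjusted p = 0.0125), all of them below, as in 7.16% of all genes. That call was lost in 3 of the 9 fits that left out 1 library. Gsr, glutathione reductase, had its treated libraries between the others too, at 477, 447 and 474 CPM against 256, 285 and 283 in young and 511, 537 and 514 in untreated old ones, without a call between the old groups (adjusted p = 0.142).

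HSC markers and transcription factors changed in both directions. Of 23 surface markers and receptors, 3 were higher and 8 lower, the former 1 without young replicate 3 or treated replicate 1, and Cd34 stood at 187, 185 and 190.3 CPM in young and 155, 154 and 148 CPM in treated old libraries. Slamf1 (log2 fold change 0.0075 ± 0.13) and Procr (-0.28 ± 0.17) were not called with the inhibitor. Of 30 transcription factors, 7 were higher and 9 lower, the latter 4 without treated replicate 2. Gfi1, a repressor that restrains HSC proliferation, rose 1.70-fold, while its relative Gfi1b, needed for red cells and platelets, fell 1.39-fold. Of 43 genes known to rise in old HSCs, 11 were higher and 12 lower with the inhibitor, and the same counts, 11 and 12, were found without it. Besides Clu, the higher ones included Plscr1 (0.60), Enpp5 (0.82) and Gda (0.56), given as log2 fold changes.

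**Figure D3:**
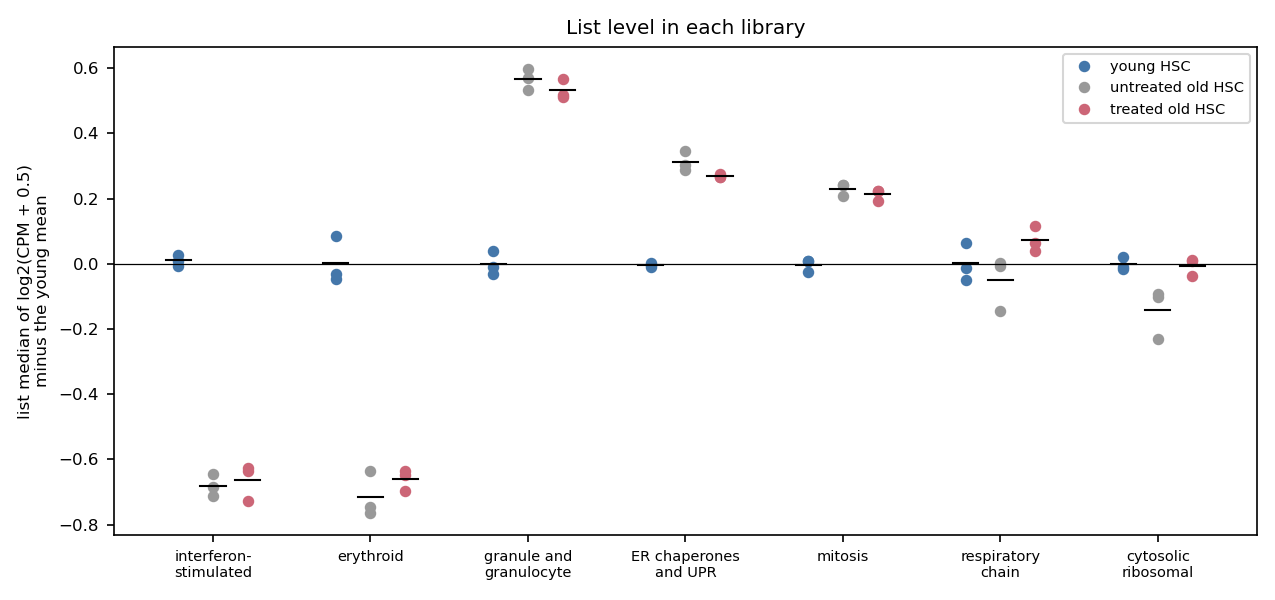
Level of 7 gene lists in each library, as the median over the list of each gene's log2(CPM + 0.5) minus its mean in young libraries. Points are libraries and black lines group means. Treated and untreated old libraries overlap in the interferon-stimulated, erythroid, granule and mitosis lists. In the ER chaperone list the treated ones (0.265, 0.265 and 0.274) lie below the untreated ones (0.287, 0.346 and 0.302). The treated ones lie above the untreated ones in the respiratory chain and cytosolic ribosomal lists.

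Cytosolic ribosomal protein genes and nuclear respiratory chain genes were the 2 lists with the most members called between the old groups. At 75 and 73 tested genes they are also among the longest lists, and of 13 mitochondrial genome genes 2 were called higher. Cytosolic ribosomal protein genes, which encode the structural proteins of the ribosome, were lower in 46 of 75 cases and higher in 7 in untreated old against young HSCs, with a median of -0.15. The lower ones were 24 without untreated replicate 2. With the inhibitor 11 were lower and 11 higher than in young HSCs, with a median of -0.015. Their list level, on the scale of the plot of lists by library, was 0.020, -0.016 and -0.010 in young, -0.10, -0.23 and -0.092 in untreated old and 0.0077, 0.010 and -0.036 in treated old libraries. In the direct comparison 19 were higher with the inhibitor and none lower, with a median of 0.11, beside 0.753% of all genes higher, whatever their level. DESeq2 called none lower, and 2 were lower at an unadjusted p under 0.05.

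That count rests on single libraries: it was 4 without treated replicate 1, 2 without treated replicate 2, 8 without untreated replicate 1 or 2 and 12 without treated replicate 3. The median stayed between 0.061 and 0.12 with other scalings, filters and gene sets and without any 1 library. The 11 lower genes against young HSCs were 3 to 7 without any 1 library other than young replicate 1 or an untreated one, and the 11 higher were 7 without treated replicate 2. The split against young HSCs also turned with the centring, from 4 higher and 21 lower under the stricter filter to 19 higher and 5 lower with no filter, and 52 of the genes share at least 20% of their words with other transcripts. The share of counts in these genes was 9.34 ± 0.148% in young, 8.11 ± 0.318% in untreated old and 8.68 ± 0.0811% in treated old libraries.

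Rpl37, a protein of the large subunit, was measured at 733, 714 and 745 CPM in young, 583, 485 and 626 CPM in untreated old and 701, 698 and 699.5 CPM in treated old libraries. It was called lower in untreated old HSCs (-0.37 ± 0.062) and not called against young HSCs with the inhibitor (-0.063 ± 0.061, adjusted p = 0.447). The direct difference of 0.31 ± 0.062 was lost without treated replicate 1 (adjusted p = 0.0884) or 2 (0.0727). Rps28, a protein of the small subunit, was lower than young in untreated old HSCs and higher with the inhibitor, at 698, 657 and 694, 583, 487 and 626 and 809.6, 848 and 729.5 CPM in young, untreated old and treated old libraries. Its direct difference was 0.49 ± 0.068 (adjusted p = 0.000528) and was kept without any 1 library, but the call against young was lost without treated replicate 2 (0.0611). Rpl34 was higher than young with the inhibitor (0.49 ± 0.066) and without it (0.35 ± 0.066), and Rpl21 lower in both (-0.19 and -0.18).

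Nuclear genes of the mitochondrial respiratory chain split 20 higher and 3 lower of 73 with the inhibitor, against 12 higher and 19 lower without it. With the inhibitor the count of higher genes was 32 without young replicate 1 and ran from 13 to 35 across other scalings, filters and gene sets. The 19 lower genes in untreated old HSCs were 4 without untreated replicate 2, 8 without young replicate 3 and 11 without treated replicate 1. The level of the whole list was 0.064, -0.049 and -0.012 in young, -0.0077, -0.14 and 0.0015 in untreated old and 0.064, 0.11 and 0.039 in treated old libraries. In the direct comparison 10 were higher with the inhibitor and none lower, also by DESeq2 or at an unadjusted p under 0.05. The count of higher genes was 0 without treated replicate 2, 2 without treated replicate 1, 3 without untreated replicate 1 or 2, 5 without young replicate 3 and 6 without treated replicate 3. The median difference between the old groups, 0.10, stayed between 0.037 and 0.12 with other scalings, filters and gene sets and without any 1 library. Ndufv3, a subunit of complex I, was higher at 242, 254 and 238 CPM than in young (190.0, 172 and 184 CPM) and untreated old libraries (204, 192 and 228 CPM), with the call between the old groups lost in 6 of the 9 fits that left out 1 library. Atp5a1 and Atp5b, subunits of ATP synthase, were higher than in young HSCs by 0.35 ± 0.041 and 0.26 ± 0.038 with values close to those of untreated old HSCs. Of 13 genes of the mitochondrial genome, 0 were higher and 1 (CYTB) was lower with the inhibitor, against 4 lower without it. The latter count was 8 without young replicate 1 and 2 without young replicate 2 or 3 or untreated replicate 3. The call of CYTB was lost without treated replicate 2 (adjusted p = 0.167) or young replicate 2 (0.0955) or 3 (0.075), 6 genes were called lower without young replicate 1, and up to 8 were called higher with other scalings, filters and gene sets. ATP8, the mitochondrial gene of a small ATP synthase subunit, stood at 454, 514 and 539 CPM in young, 383, 377 and 441 CPM in untreated old and 551, 567 and 532 CPM in treated old libraries, and 21.1% of it overlaps ATP6. Its log2 fold change of untreated old against young, -0.33, turned to 0.075 (adjusted p = 0.118) with trends in GC content and length removed.

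Among differences that remained but were smaller with the inhibitor, the largest direct changes were in Cebpb, Tmem165, Abhd17b, Pabir1 and Alyref, which are higher in old HSCs, and Pf4, Wdr31, S100a10, Lgals1 and Slc14a1, which are lower. Cebpb, a transcription factor of emergency granulocyte formation, was measured at 34.8, 32.9 and 29.3 CPM in young, 80.3, 70.2 and 74.6 CPM in untreated old and 49.4, 51.0 and 48.0 CPM in treated old libraries. The groups did not overlap, and the log2 fold change from young was 0.61 ± 0.069 with and 1.21 ± 0.068 without the inhibitor. The direct difference was -0.60 ± 0.067 (adjusted p = 4.16e-05), and 20.7% of its exon bases overlap Peds1. Tmem165, a Golgi protein of manganese and calcium balance, stood at 50.2, 60.7 and 53.3, 99.5, 97.6 and 93.5 and 73.4, 67.4 and 72.6 CPM in young, untreated old and treated old libraries. Alyref, an adaptor of messenger RNA export, followed at 106, 112 and 106, 178, 193 and 173 and 151, 147 and 148 CPM. Lgals1, the lectin galectin-1, was 631, 580.4 and 606 CPM in young, 322, 284 and 315 CPM in untreated old and 374, 379 and 353 CPM in treated old libraries. The call of Wdr31 against young with the inhibitor was lost in 8 of the 9 fits that left out 1 library, all but that without treated replicate 2 (adjusted p up to 0.186).

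Genes called in untreated old HSCs that were no longer called against young, and that were called between the old groups, were led by Crls1, Dapk3, Ogfrl1, Orai1 and Otulin in the higher direction and by Rpl37, Sgip1, Anapc13, Fmo1 and ATP8 in the lower. For Fmo1, the calls without the inhibitor (adjusted p = 0.0371) and between the old groups (0.0435) were each lost in 7 of the 9 fits that left out 1 library. Its treated libraries lay above the young ones. Crls1, the synthase of the mitochondrial lipid cardiolipin, stood at 12.3, 13.8 and 14.2 CPM in young, 24.7, 21.3 and 21.1 CPM in untreated old and 15.7, 11.3 and 15.2 CPM in treated old libraries. Treated and young values overlapped, with a log2 fold change of 0.076 ± 0.11 (adjusted p = 0.631). Orai1, the pore of store-operated calcium entry, had a log2 fold change of 0.46 without and 0.13 with the inhibitor, and Otulin, a deubiquitinase of linear chains, 0.45 and 0.11. A difference that is not called with the inhibitor may still be present below the threshold.

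Other genes differed more from young HSCs with the inhibitor than without it. Nol4l rose from 35.8, 35.7 and 34.2 CPM in young to 39.7, 45.2 and 45.7 CPM in untreated old and 63.5, 60.2 and 56.6 CPM in treated old libraries. Ctf2, a cytokine of the interleukin-6 family, stood at 39.6, 34.8 and 39.4, 71.4, 64.0 and 69.8 and 88.7, 100.5 and 78.6 CPM, and Zmynd8, a chromatin reader, at 255, 224 and 231, 289, 284 and 303 and 397, 409 and 322 CPM. In Ctf2, Zmynd8 and Lztr1 the third treated library was the lowest of the treated ones. Csrp1 and Grip2 moved further down, with log2 fold changes from young of -0.59 and -0.54 with and -0.28 and -0.25 without the inhibitor.

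Differences from young HSCs that were called with the inhibitor only, and were called apart from untreated old HSCs were led by Cep89, Unc13d, Dennd5b, Ppip5k1 and Alpk2, all higher, and Mplkip, Rad23b, Ybx3 and Ythdc1, all lower. Rad23b, a protein of DNA damage recognition and proteasome delivery, was measured at 52.5, 52.6 and 50.8 CPM in young, 55.1, 56.1 and 53.2 CPM in untreated old and 41.8, 44.3 and 39.4 CPM in treated old libraries. Treated values lay below all others, and those of Ybx3 and Ythdc1 did so too, but their calls against young were lost without treated replicate 2 (Ythdc1, adjusted p = 0.123), treated replicate 1 or 3 (Ybx3, 0.0541 and 0.0616) or young replicate 2 (0.112 and 0.0753), and that of Ythdc1 with trends in GC content and length removed (0.748). Mplkip, a gene of non-photosensitive trichothiodystrophy, stood at 71.6, 72.4 and 68.3, 76.0, 70.3 and 67.2 and 54.6, 57.3 and 53.8 CPM in young, untreated old and treated old libraries. Unc13d, a factor of granule release, was 95.2, 98.9 and 83.0 CPM in treated old against 72.4, 64.4 and 64.9 CPM in young libraries, with 76.0, 72.8 and 77.2 CPM in untreated old ones. Its difference between untreated old and young HSCs narrowly missed the threshold (adjusted p = 0.0518) and was called in 5 of the 9 fits that left out 1 library and in 8 of the 11 others. Atp5md and Gnas were called in opposite directions in the comparisons with young HSCs: Atp5md -0.21 without and 0.20 with the inhibitor, Gnas 0.13 and -0.12. The call of Gnas with the inhibitor was lost in 8 of the 9 fits that left out 1 library, all but that without young replicate 3, and that of Atp5md without treated replicate 1 (adjusted p = 0.084) or 2 (0.105) or young replicate 2 (0.116).

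Of the 40 genes named by size for a call between treated and untreated old HSCs, those of the plot of moved genes, 10 kept it in each of the 9 fits that left out 1 library: Pf4, Cebpb, Tmem165, Alyref, Nol4l, Crls1, ATP8, Mplkip, Rad23b and Rps28. Without treated replicate 2, 29 of the 40 were no longer called, 23 without treated replicate 1, and 24 without untreated replicate 2. These fits have fewer libraries. In the 11 other fits, 36 of the 40 kept their call.

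**Figure D4:**
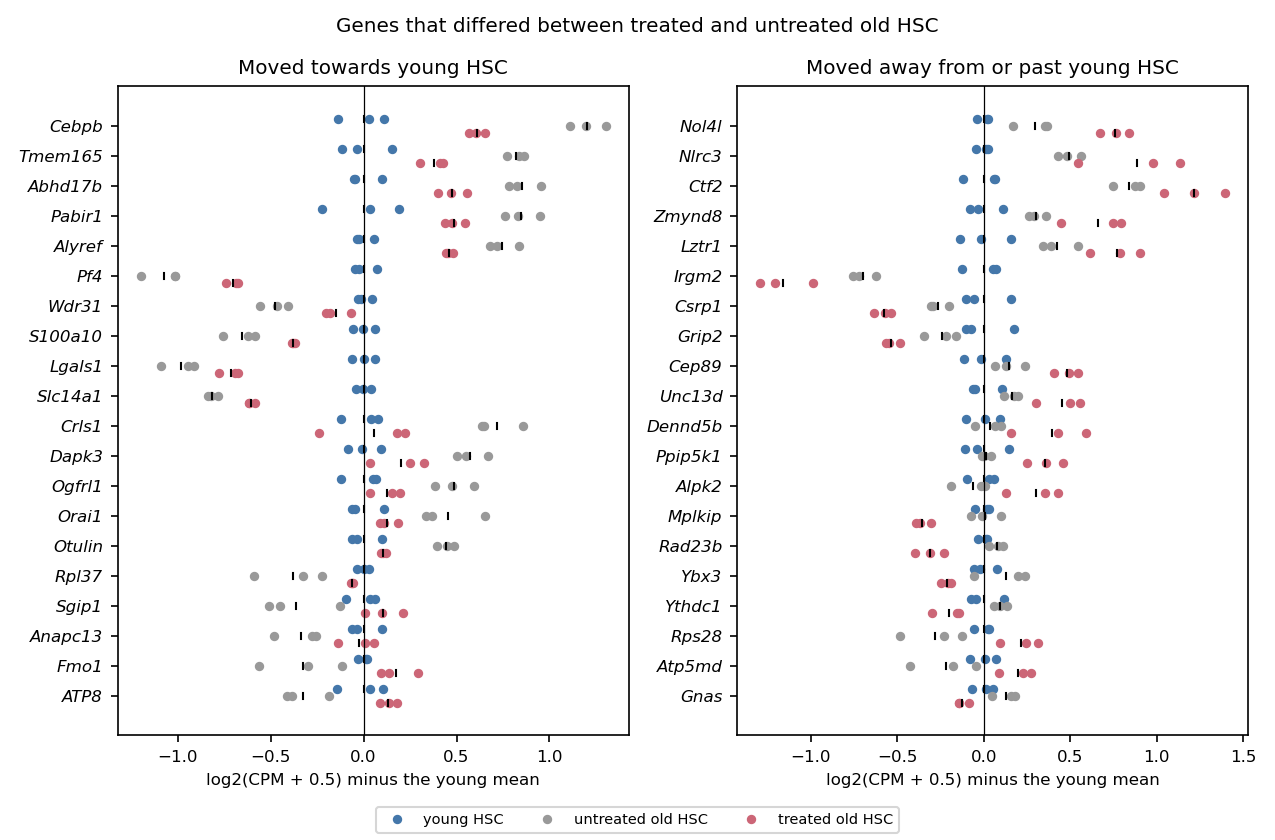
Levels of genes called between treated and untreated old HSCs that moved towards young HSCs (left) or away from or past them (right), as log2(CPM + 0.5) minus the young mean. Each point is 1 library and black ticks are group means. Treated libraries lie between the untreated old and the young ones in Cebpb, overlap the young ones in Crls1, and lie above them in Fmo1.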

How the data were processed

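Levels are from low-input RNA sequencing of 9 libraries in 3 groups of 3, grouped by their labels. The deposited table holds expected counts per gene, estimated values that need not be whole (56.0% of the non-zero ones were whole), which were rounded before testing. The build mm10 and 4 tools (edgeR 3.24.3, HTSeq 0.10.0, STAR 2.6.1d and Trim Galore 0.6.2) come without role or order, per the submitters' processing notes. How fractional counts arose: not given in the sources used here. All 23317 gene identifiers matched the GENCODE M21 annotation of GRCm38, which gave coordinates. No source used here states that strand was counted.

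Testing used R 4.3.3 and edgeR 4.0.16, with TMM scaling, the default filter (14227 genes) and a quasi-likelihood model of the 9 libraries by group alone, so that the groups share 1 estimate of the spread. Benjamini-Hochberg adjustment ran over all 14227 genes, and the 13686 outside the X and Y chromosomes are described. Log2 fold changes are edgeR's, given ± SE, and folds are ratios of mean CPM. A gene with at least 20% of its 31-base words in other genes' transcripts has uncertain counts. Totals of 16663460 to 23254133 counts and a common biological coefficient of variation of 0.0583 set the precision. On simulated counts for treated old against young HSCs (14041 genes), 62% of changes of 1.25-fold, 76% of 1.5-fold, 92% of 2-fold and 100% of 4-fold were called, with 7 false calls. Only 200 genes were changed there, 50 per fold and none of the lowest level, against 5132 called in the data. The simulated rates therefore need not hold for the data. The alternatives were RLE size factors, DESeq2 1.42.0, other filters, 2 groups alone, equal depth, trends in GC content and length removed, a replicate block, and genes or single libraries left out. The genes named were protein coding, outside antigen receptor loci, with under 20% shared words, at least 10 CPM in the higher group and non-overlapping libraries: the 10 largest rises and falls. To these were added up to 4 members of smallest p per list and 12 genes of the study's question, of which the X-linked one was left out. Up to 5 genes per direction were named for each way treated and untreated old HSCs differed, by size. HSC markers and Gbp7, shown for its promoter, were named besides. The members and the 44 gene lists were chosen with earlier results of these data known.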

Additional observations from a re-analysis of the deposited data

How the results depend on the processing

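Of the 4124 differences that remained with the inhibitor, 63.5% were found again under the stricter filter (at least 5 CPM in 3 libraries), which tests fewer genes, and 81.8% to 99.1% in every other fit. The totals ran from 2938 (stricter filter) to 4606 (trends in GC content and length removed). The counts between treated and untreated old HSCs depended most on the processing. With 2 groups alone, 157 genes were higher and 96 lower, 56 remaining differences were smaller and 27 larger, and 45 moved away from young. With the GC and length trends removed, 120 were lower, 80 smaller, 27 larger and 47 away. With no filter, 209 were higher, 111 lower, 63 smaller, 43 larger, 63 away and 30 of opposite sign. The stricter filter left 529 called with the inhibitor only and 2 of opposite sign. Without genes of shared words and antigen receptors, 32 were lower, 16 smaller, and 33 not called with the inhibitor moved towards young. The cause of these shifts was not tested.

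Same-numbered treated old and young libraries did not deviate together (correlations of -0.024, -0.060 and -0.022). Same-numbered untreated old and young libraries had correlations of 0.063, 0.13 and 0.064, above those of differently numbered ones (-0.096 to 0.035). The labels give no shared origin, and whether same-numbered libraries share one was not tested. With the replicate block, 4115 differences remained, and 2701 genes were higher and 2423 lower in treated old than in young HSCs. With the block and the GC and length trends, 121 were lower between the old groups, 77 smaller, 31 larger and 47 away. The old against young log2 fold changes of COX3 and ATP8 turned to 0.11 and 0.075 with these trends removed, with and without the block.

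Leaving out 1 library at a time gave 17 to 168 genes higher and 31 to 110 lower between the old groups. Of these, 16 to 67 were smaller remaining differences, 3 to 31 larger, 24 to 102 moved towards young without a call against it, and 4 to 46 moved away. Genes called with the inhibitor only ran from 650 to 1581 and genes of opposite sign from 0 to 18. The share of old against young calls that remained ran from 67.0% to 81.6%. The fits have fewer samples.

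Other lists moved by over 1.5 times across other scalings, filters and gene sets. Lower genes ran from 10 to 19 in MHC class I presentation, 5 to 10 in HSC transcription factors, 7 to 12 in genes known to rise in old HSCs, 6 to 11 in stromal genes, 3 to 5 in mast cell genes, 1 to 5 in B cell and plasma cell genes, 7 to 10 in lymphoid priming genes and 1 to 7 in heat shock proteins, which had 10 to 17 higher.

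Genes of low level limit these data: the 2-fold changes below 10 CPM in both groups rest on few counts. Counts in genes of shared words, ribosomal protein genes above all, depend on the assignment of reads, a step not given in the sources used here.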

Other observations

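Gene groups not described above differed in size and direction between treated old and young HSCs. Of 21 tested stromal and endothelial genes, 11 were lower and 2 higher, among them Egfl7, an angiogenic factor that HSCs also express, at 26.0, 23.7 and 23.2 CPM in young and 18.5, 19.3 and 16.4 CPM in treated old libraries. The count of lower genes was 5 without treated replicate 1 and 7 without treated replicate 2. Of 18 mast cell and basophil genes, 5 were lower and 2 higher, with a median log2 fold change of -0.16. The lower count was 2 without young replicate 2 or treated replicate 1, 3 without young replicate 3 and 1 without treated replicate 2. Mcpt8, a basophil protease and 1 of the higher genes, stood at 84.6, 80.6 and 77.6 CPM in young and 98.4, 99.3 and 94.3 CPM in treated old libraries. Its untreated old libraries held 88.6, 90.6 and 90.4 CPM. Fcer1a, the other marker of these cells, was not called, at 60.1 ± 1.52 CPM in young and 55.5 ± 1.90 CPM in treated old libraries. Of 15 tested genes of T cells and natural killer cells, 4 were higher and 4 lower, with a median log2 fold change of -0.31. The count of higher genes was 2 without young replicate 3. Nkg7, a granule membrane protein of cytotoxic cells, was 1 of the higher genes. It was at 1473, 1317 and 1353 CPM in young and 1979, 2059 and 1891 CPM in treated old libraries. Ncr1, below 1 CPM in every young and treated old library, had a log2 fold change of -0.99 ± 0.41 (SE). It was not called (adjusted p = 0.0668 by edgeR's test). Cd3e was below 0.1 CPM in every young and treated old library.

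Cholesterol and fatty acid synthesis genes were higher in 16 of 37 cases and lower in 2, with Elovl5, an elongase of polyunsaturated fatty acids, at 106, 109 and 111 CPM in young and 145, 145 and 146 CPM in treated old libraries. Of 40 autophagy genes, 11 were higher and 3 lower, and Atg12, a conjugation protein of autophagosome formation, rose 1.40-fold. That count of higher genes was near the share among genes with at least 10 CPM in the higher group (2375 of 7852). Of 31 p53 target genes, 10 were higher and 3 lower. Xpc, which recognises damaged DNA, rose from 98.7, 99.7 and 101 CPM to 173, 178 and 169 CPM, and Gadd45a, a stress-induced growth arrest gene, 1.65-fold. Pentose phosphate genes split 4 higher and 1 lower of 8, with Pgd 1.48-fold higher and Rpia 1.47-fold lower. Translation initiation and elongation factors were higher in 17 of 45 cases, mitochondrial ribosomal protein genes in 23 of 76 (from 9 to 20 and from 13 to 31 across other scalings, filters and gene sets), and heat shock, lysosome and proteasome genes as given above. The higher p53 target and mitochondrial ribosomal protein genes were also near the share of 2375 of 7852.

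DNA repair genes (5 higher and 4 lower of 43) and chromatin regulators (4 and 3 of 40) were below the share of all genes called in either direction. The higher chromatin regulators ran from 2 to 15 across other scalings, filters and gene sets, and the lower ones were 6 without young replicate 1. DNA repair genes ran from 3 to 9 higher and 2 to 8 lower. Dnmt3a, a DNA methyltransferase that limits HSC self-renewal, was 18.6, 17.2 and 16.7 CPM in treated old against 20.7, 23.5 and 23.8 CPM in young libraries. Cxcl10, an interferon-induced chemokine, was higher in old HSCs, unlike the interferon-stimulated list: it stood at 152, 153 and 152 CPM in young, 237, 229 and 239 CPM in untreated old and 195, 193 and 202 CPM in treated old libraries, and its direct difference between the old groups was -0.26 ± 0.043 (adjusted p = 0.00303), a call kept in each of the 9 fits that left out 1 library.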
